A study of Mus musculus with 11 samples.

Results

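The enzyme-secreting acinar cells of the pancreas are held in their mature state by a small set of transcription factors. A list of 9 genes, chosen as acinar identity factors, was followed here in mice with experimental acute pancreatitis. Whether each of the 9 holds that state was not tested. The 9 genes were Ptf1a, Rbpjl, Bhlha15, Nr5a2, Gata4, Gata6, Foxa2, Prox1 and Mecom, taken by name from 19938 named genes. Each was read from the probe set that carried that symbol alone, and Mecom, the only member with more than 1 such probe set, from the brighter of its 2. All 9 were measured on every array. Whole pancreas of wild-type mice of strain C57Bl6J was collected after intraperitoneal injection of caerulein or of sodium chloride (NaCl), and total RNA was hybridised to Affymetrix arrays, 1 array per sample. Caerulein, an analogue of the gut hormone cholecystokinin that overstimulates acinar cells, was given as 9 injections, an hour apart. The stated dose is 50 mg/kg, and its unit could not be verified. There were 6 caerulein and 5 NaCl arrays by their titles, while the series text counts 4 control mice. The sources used here do not give the age, the sex or the time between the last injection and collection. The labels leave unsaid whether every sample came from its own mouse, so each p-value reflects spread among these samples alone, which may be technical. In RNA from whole tissue, fewer cells of a type and less RNA per cell cannot be told apart.

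PTF1A, a basic helix-loop-helix (bHLH) protein, works in a trimer called PTF1 with a common E protein and either RBPJ or its acinar relative RBPJL, and this complex switches on the genes of the digestive enzymes. BHLHA15, also known as MIST1, is another bHLH factor, which builds the secretory apparatus, and the nuclear receptor NR5A2 acts together with PTF1 on acinar genes. GATA4, GATA6 and FOXA2 are needed when the pancreas forms and GATA factors also later in acinar cells, PROX1 is a homeobox factor of pancreatic progenitors and of lymphatic vessels, and MECOM is a zinc finger factor.

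In caerulein pancreas 6 of the 9 factors were lower, 1 was higher and 2 did not pass the test. The largest falls were those of Bhlha15, 4.00-fold, and Rbpjl, 2.69-fold, followed by Mecom, 1.89-fold, and Nr5a2, 1.78-fold. Foxa2 and Prox1 fell 1.34-fold each. Ptf1a was 1.47-fold higher as deposited. That direction turned when arrays were brought to an equal mean of a list of reference genes, a scaling that called 87.8% of named genes lower. The turned difference did not pass (log2 difference -0.26, limma adjusted p = 0.0938). Gata4 and Gata6 did not pass as deposited. Differences are caerulein minus NaCl on the log2 scale, and adjusted p-values are from limma with Benjamini-Hochberg adjustment over all 35556 probe sets, with a threshold of 0.05. Among all named genes 34.3% were called lower and 20.3% higher. The median difference of the 9 factors was -0.42, beside -0.13 for all named genes.

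Promoter sequence is shown for the members with the largest falls and for the member that rose, since these differ most in how they moved. RefSeq promoters (build GRCm38.p6) matched 7 of the 9 members, all but Gata4 and Gata6. Each line gives the 250 bases before the start of the gene on the plus strand, 5′ to 3′. Capitals mark CANCTG, the E-box form that PTF1 binds, TGGGAA, the core of the site of RBPJ and RBPJL, and CAAGGNCA, the form of an NR5A2 site, each searched on both strands.
Bhlha15, chr5:144190036-144190285: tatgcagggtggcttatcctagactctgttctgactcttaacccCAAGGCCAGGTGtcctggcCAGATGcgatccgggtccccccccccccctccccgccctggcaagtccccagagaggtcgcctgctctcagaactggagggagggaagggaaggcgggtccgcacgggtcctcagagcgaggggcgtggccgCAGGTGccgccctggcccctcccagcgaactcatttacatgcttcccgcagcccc
Rbpjl, chr2:164402944-164403193: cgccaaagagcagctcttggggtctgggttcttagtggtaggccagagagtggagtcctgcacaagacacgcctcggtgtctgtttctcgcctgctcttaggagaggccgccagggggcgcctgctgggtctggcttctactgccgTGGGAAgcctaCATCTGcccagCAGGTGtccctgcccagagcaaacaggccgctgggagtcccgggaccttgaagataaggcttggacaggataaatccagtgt
Ptf1a, chr2:19445413-19445662: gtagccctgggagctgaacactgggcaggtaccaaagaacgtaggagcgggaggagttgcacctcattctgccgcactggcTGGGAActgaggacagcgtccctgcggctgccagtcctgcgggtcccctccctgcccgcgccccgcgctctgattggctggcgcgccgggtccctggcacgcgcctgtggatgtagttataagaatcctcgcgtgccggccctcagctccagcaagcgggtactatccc

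The Bhlha15 window held 3 matches to CANCTG and 1 to CAAGGNCA, which overlaps the first E-box. The Rbpjl window held 2 matches to CANCTG and 1 to TGGGAA. The Ptf1a window held 1 match to TGGGAA and none to the other 2 motifs. Of the members not shown, Foxa2, which also fell, held no match to any of these motifs in its windows. Nr5a2, Prox1 and Mecom each held CANCTG in at least 1 window. Whether matches go with the direction of change was not tested. Of 32851 RefSeq promoter windows of the same length, 44.8% held CANCTG, 21.6% TGGGAA and 5.53% CAAGGNCA. In Rbpjl the TGGGAA letters and an E-box stood 5 bases apart, at positions -104 to -88 from the start. The arrangement of TGGGAA, 5 bases and then the general E-box CANNTG, on either strand and chosen after the sequence was seen, was found in 0.103% of the windows. Matches are letters only, and no binding was measured in these samples.

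The members that form or feed the PTF1 complex moved apart. Ptf1a had log2 values of 7.68, 7.59, 7.24, 7.14 and 7.02 in the NaCl arrays and from 7.63 through a median of 7.78 to 8.27 in the caerulein arrays. Caerulein arrays were the higher ones, all above the NaCl mean, but the lowest of them lay just under the highest NaCl array. The difference was 0.55 (SE 0.15, 95% interval 0.24 to 0.87, limma adjusted p = 0.00823), and 2497 of the 19938 named genes had a larger rise. The call was lost when quantile normalisation was applied again (0.28, limma adjusted p = 0.164), and over all 20 alternatives the adjusted p ranged from 0.00385 to 0.164.

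Rbpjl, which replaces RBPJ in the PTF1 complex as acinar cells mature, had values of 9.79, 9.54, 9.13, 9.59 and 9.45 in NaCl. In caerulein it lay between 7.81 and 8.34, with a median of 8.07. Every caerulein array was below every NaCl array by a wide margin. The difference was -1.43 (SE 0.13, 95% interval -1.71 to -1.14, limma adjusted p = 2.09e-06), and 118 named genes had a larger fall. The changes of Ptf1a and Rbpjl within the same arrays differed by 1.98 (SE 0.20, 95% interval 1.53 to 2.44). An exact permutation test over the samples, two-sided, gave p = 0.00433 for this pair, which is the smallest that 6 against 5 arrays allow (adjusted p = 0.00649 over 36 member pairs).

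Bhlha15 showed the largest change of the 9. Its NaCl values were 10.15, 9.56, 9.37, 9.63 and 9.56, with NaCl replicate 1 the highest, and its caerulein values ran from 7.53 through a median of 7.63 to 7.80. No caerulein array came near the NaCl arrays. The mean went from 9.65 ± 0.29 (SD, n = 5) to 7.65 ± 0.12 (SD, n = 6), a difference of -2.00 (SE 0.12, 95% interval -2.26 to -1.74, limma adjusted p = 3.85e-08). A larger fall was seen in 38 named genes. Falls of at least 2-fold that passed the limma threshold were found in 1.44% of named genes, and Bhlha15 and Rbpjl were the members among them. Rises of that size were found in 6.14%, with 0 members among them.

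Nr5a2 had NaCl values of 8.01, 7.87, 7.96, 7.84 and 7.97, a tight group. Its caerulein values lay between 6.84 and 7.35, with a median of 7.17, all below the NaCl arrays. The difference was -0.83 (SE 0.095, 95% interval -1.04 to -0.62, limma adjusted p = 1.58e-05). The standard deviation was 0.073 in NaCl and 0.21 in caerulein, where replicates 4 and 6 were the lowest at 6.87 and 6.84.

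**Figure D1:**
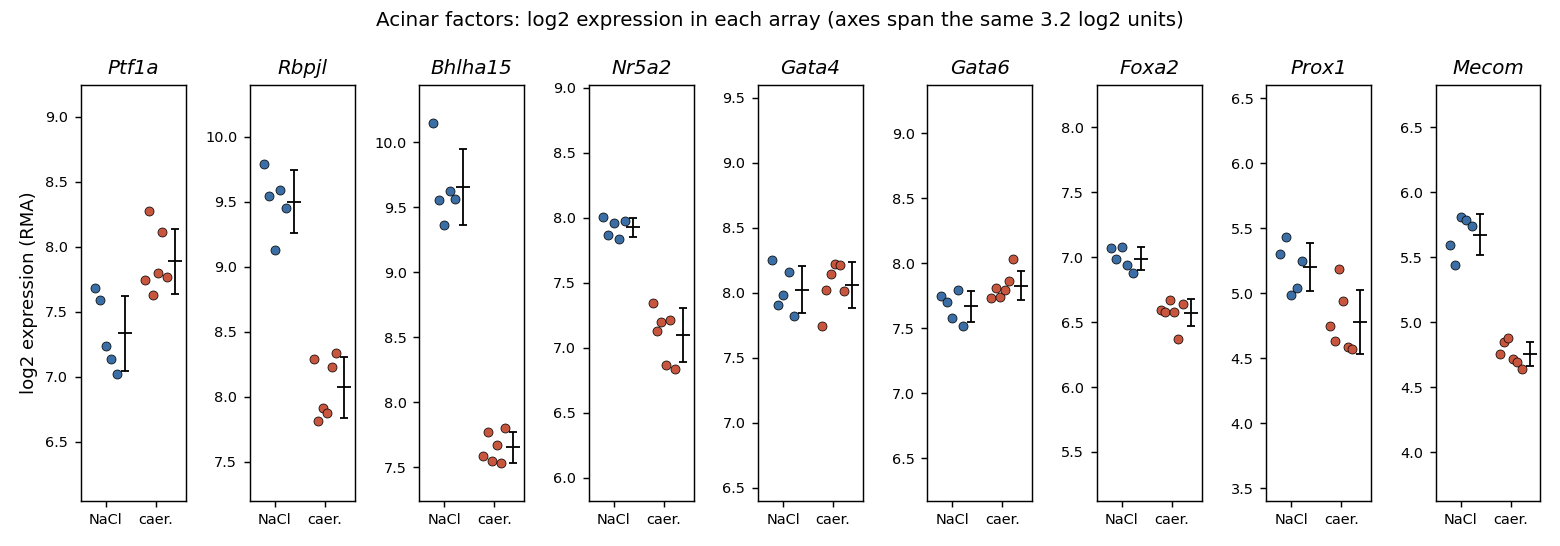
Log2 expression (RMA, vertical axis, a 3.2-unit span in each panel) of the 9 factors in the 5 NaCl arrays (blue) and 6 caerulein arrays (red), 1 point per array, with the mean and SD as black marks. For Rbpjl, Bhlha15, Nr5a2, Foxa2 and Mecom all caerulein points lie below all NaCl points, whereas the points of Ptf1a, Gata4, Gata6 and Prox1 overlap between groups.

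The GATA factors showed the smallest differences. Gata4 was 8.25, 7.91, 7.98, 8.16 and 7.82 in NaCl and ran from 7.74 through a median of 8.08 to 8.22 in caerulein, so that the groups covered almost the same range. Its difference was 0.035 (SE 0.10, 95% interval -0.19 to 0.26, limma adjusted p = 0.805). Gata6 was 7.75, 7.70, 7.58, 7.79 and 7.51 in NaCl and 7.73 to 8.03 in caerulein, with a median of 7.80. All 6 caerulein arrays lay above the NaCl mean of Gata6, yet the groups overlapped, and the difference of 0.16 (SE 0.076, 95% interval -0.0041 to 0.32) did not pass (limma adjusted p = 0.104). Both became called lower with an equal scaling list mean (-0.78 and -0.66, limma adjusted p = 2.42e-06 and 9.7e-07), a scaling under which 87.8% of named genes were called lower. Without NaCl replicate 5 the Gata4 difference was -0.015.

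Foxa2, a forkhead factor that opens chromatin in gut and pancreatic epithelium, was 7.07, 6.98, 7.08, 6.94 and 6.88 in NaCl and between 6.37 and 6.67 in caerulein, with a median of 6.58. The groups did not overlap, and the difference was -0.42 (SE 0.069, 95% interval -0.57 to -0.27, limma adjusted p = 0.000357). Caerulein replicate 5 stood below the other caerulein arrays. Prox1 was 5.30, 5.43, 4.99, 5.04 and 5.25 in NaCl and 4.57 to 5.19 in caerulein, with a median of 4.69. Caerulein replicate 3, at 5.19, lay within the NaCl range, so the Prox1 groups overlapped. The Prox1 difference was -0.42 (SE 0.12, 95% interval -0.69 to -0.16, limma adjusted p = 0.0141). The Prox1 call ended after cyclic loess (-0.23, limma adjusted p = 0.167) and after the repeated quantile normalisation (-0.27, limma adjusted p = 0.102), and its adjusted p ranged from 1.12e-06 to 0.167 over 19 alternatives.

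Mecom was 5.59, 5.44, 5.81, 5.79 and 5.74 in NaCl and ran from 4.64 through a median of 4.74 to 4.88 in caerulein, with no overlap. The difference was -0.92 (SE 0.080, 95% interval -1.09 to -0.74, limma adjusted p = 1.25e-06). A second Mecom probe set, to which the platform annotation assigns partly different transcripts, differed by -0.37 (SE 0.10, limma adjusted p = 0.011), and its groups overlapped. The changes of the 2 probe sets differed by 0.54 (SE 0.12, exact permutation test over samples, two-sided, p = 0.00866). Both Mecom and Prox1 lay in the dimmer 50 percent of the probe sets, and with no detection calls at hand it is unknown whether they were above background.

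Taken by arrays, 5 of the 9 factors had every caerulein array below every NaCl array, and 0 had every one above. Over all named genes these shares were 20.6% and 16.7%. Seen among all named genes, Bhlha15 and Rbpjl lay far out on the side of the falls, Mecom and Nr5a2 had 357 and 453 genes with larger falls, and Prox1 and Foxa2 had 2385 and 2440. Gata6 and Gata4 lay nearer the centre, with 4686 and 5961 genes of larger rise.

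**Figure D2:**
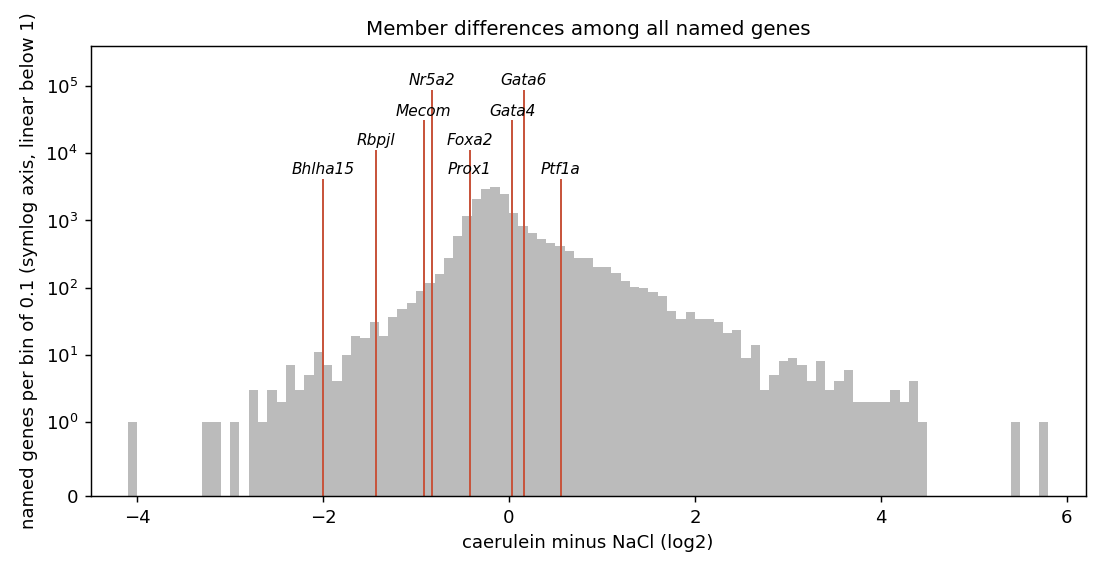
Number of named genes (vertical axis, symmetric log scale, linear below 1) in each bin of the caerulein minus NaCl log2 difference (horizontal axis), with the 9 factors marked by red lines whose heights carry no value. Bhlha15 at -2.00 and Rbpjl at -1.43 lie in the thin left tail, and Ptf1a at 0.55 lies right of the peak.

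The scale of the arrays bears on the factors with small differences. The median difference of all named genes was -0.13 as deposited, -0.95 with the scaling list held equal, -0.19 with equal 75th percentiles, -0.057 for a repeated quantile normalisation and -0.019 for cyclic loess. With the scaling list held equal 0 members were higher and 8 lower, beside 5.44% and 87.8% of named genes. Equal 75th percentiles gave 1 and 6, beside 18.7% and 45.9%. A repeated quantile normalisation gave 0 and 5, beside 19.3% and 23.4%, and cyclic loess 1 and 5, beside 21.9% and 18.2%. Of the 11 measured genes of that scaling list 7 were higher and 0 lower as deposited, beside 20.3% and 34.3% of named genes. The rises were led by Actb with a difference of 2.93 (limma adjusted p = 1.36e-10) and Ywhaz with 1.88 (limma adjusted p = 8.77e-09). A second Ywhaz probe set did not pass (0.21, limma adjusted p = 0.0669). Bhlha15 fell under all 5 scalings, with differences from -2.82 to -2.00, as did Rbpjl, from -2.25 to -1.43. Nr5a2, Mecom and Foxa2 were also called lower under all 5 scalings.

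**Figure D3:**
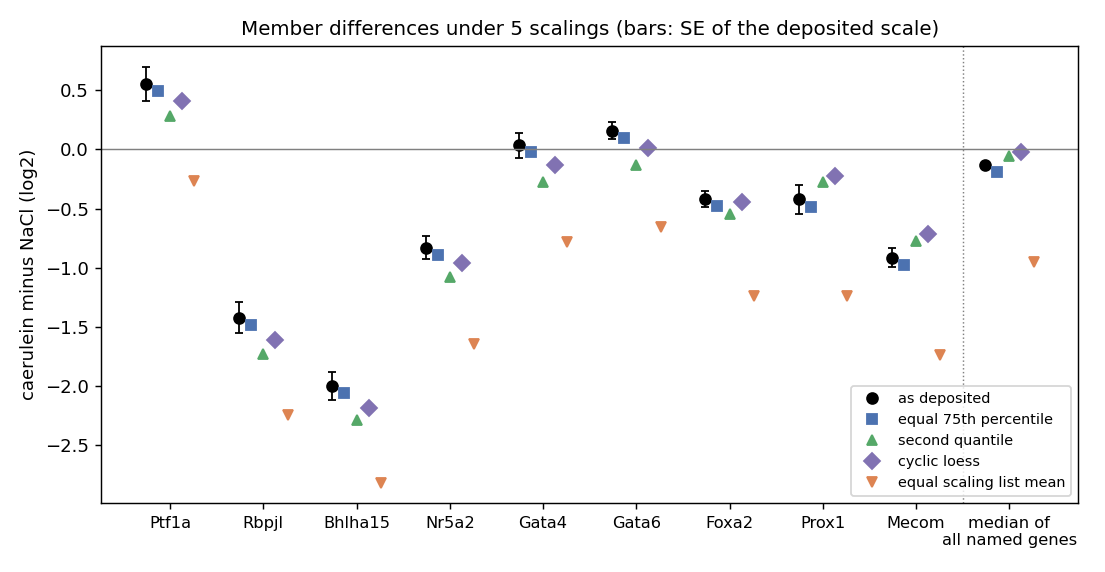
Caerulein minus NaCl difference (log2, vertical axis) of each factor and the median of all named genes under 5 scalings of the same arrays, with the SE of the deposited scale as bars. Bhlha15, Rbpjl, Nr5a2, Foxa2, Prox1 and Mecom stay below 0 under each scaling, Ptf1a is below 0 only with an equal scaling list mean (-0.26), and Gata4 and Gata6 lie on both sides of 0.

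A difference between factors within an array does not move when a whole array is shifted, so the changes of the members were also set against each other. Of 36 pairs, 31 changed unequally by limma with a member subtracted from every probe set, and 33 by the exact permutation test over samples with adjustment over the 36 pairs, the latter a test added after the data had been seen. For the exact test no share over other gene pairs was computed, and the 36 pairs share members. By limma, unequal change was common over all genes. In the same limma fits the share of named genes that changed unequally was 99.8% relative to Bhlha15, 99% to Rbpjl, 96.9% to Mecom and 94.3% to Nr5a2. It was 81.3% relative to Ptf1a, 66.3% to Gata6, 58% to Foxa2, 34.3% to Prox1 and 30.7% to Gata4. Bhlha15 fell further than Rbpjl, by a difference in change of 0.57 (SE 0.13, exact permutation p = 0.00433, adjusted p = 0.00649), and its change minus that of Nr5a2 was -1.17 (SE 0.17, the same p-values). The change of Rbpjl minus that of Nr5a2 was -0.60 (SE 0.17, exact permutation p = 0.013, adjusted p = 0.0173).

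Neighbours in the order of change could not always be separated. The changes of Nr5a2 and Mecom differed by 0.087 (95% interval -0.15 to 0.32, exact permutation p = 0.416, adjusted p = 0.427). For Gata4 and Gata6 the value was -0.12 (95% interval -0.35 to 0.099, exact permutation p = 0.26, adjusted p = 0.275), and for Foxa2 and Prox1 it was 0.0054 (95% interval -0.29 to 0.30, exact permutation p = 0.961, adjusted p = 0.961). Ptf1a rose relative to Gata4 by 0.52 (exact permutation p = 0.0173, adjusted p = 0.0223). Relative to Gata6 its change was 0.39 larger, which passed the exact permutation test (p = 0.0346, adjusted p = 0.039) but not limma (adjusted p = 0.0727). The pair of Nr5a2 and Prox1 likewise passed the exact test alone.

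**Figure D4:**
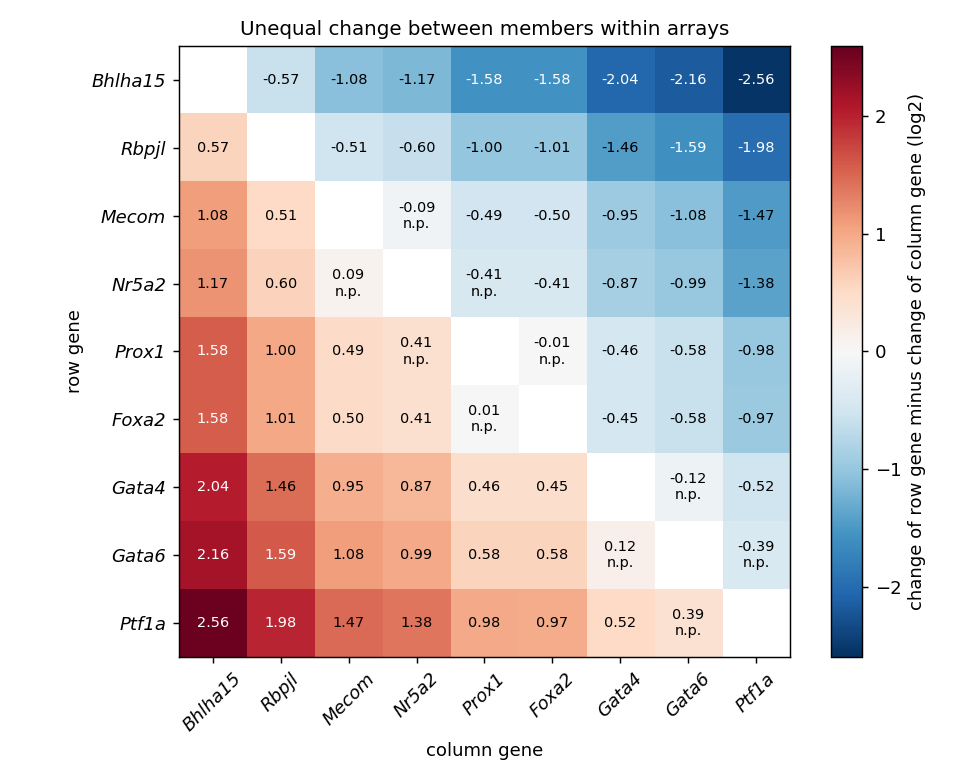
Difference between the change of the row gene and that of the column gene (log2, colour and printed value), with genes ordered by change. The 5 pairs marked n.p. were not past the threshold in both the limma and the exact permutation test, and the largest value is 2.56, for Ptf1a against Bhlha15.

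Digestive enzymes, the products of the programme, served to check the tissue. The mean of 13 measured enzyme genes was 13.95 to 13.99 on the NaCl arrays and 13.64 to 13.72 on the caerulein arrays, near the highest value on any array (15.05), so the defining acinar products were present in both groups. RMA values can be compressed at that end of the scale. Of the 13 enzymes, with a median difference of -0.10, 4 passed as lower and 0 as higher, beside 34.3% and 20.3% of named genes. Equal 75th percentiles gave 11 lower, and the scaling list held equal gave 13, beside 45.9% and 87.8% of named genes. The chymotrypsin Ctrc, whose level was well under that end, fell by 1.39 (limma adjusted p = 8.73e-07) and the ribonuclease Rnase1 fell by 0.71 (limma adjusted p = 3.67e-06). Relative to the enzyme mean within each array, a reference that lies mostly near the top of the scale and may understate the enzymes' own fall, Bhlha15, Rbpjl, Mecom and Nr5a2 were lower (-1.72, -1.14, -0.63 and -0.55). Ptf1a, Gata6 and Gata4 were higher (0.84, 0.44 and 0.32; limma adjusted p = 0.000435, 0.000306 and 0.0275). Foxa2 and Prox1 did not pass (limma adjusted p = 0.127 and 0.391). In that fit 39.8% of named genes were called higher and 6.61% lower. The noise of a subtracted enzyme mean or median is shared by every probe set, so these limma p-values can be too small. With the median of the enzymes in place of their mean, Gata4 did not pass (limma adjusted p = 0.428), and Foxa2 and Prox1 passed as lower (limma adjusted p = 0.00217 and 0.0459). With Ctrc alone as the reference, a choice made after the data had been seen, Bhlha15 was lower, with a difference of -0.61 (SE 0.12, exact permutation p = 0.00866, adjusted p = 0.013 over the 9 members). Rbpjl differed from Ctrc by -0.038 (95% interval -0.32 to 0.24, exact permutation p = 0.771, adjusted p = 0.771). Nr5a2 and Mecom turned to 0.56 and 0.47 (exact permutation p = 0.0303 and 0.013, adjusted p = 0.0341 and 0.0167). Foxa2 and Prox1, lower against the enzyme median, were higher against Ctrc, by 0.97 each (exact permutation p = 0.00433, adjusted p = 0.00779). The size of the members' changes relative to the enzymes thus rests on which enzymes are the reference. So does the direction for Mecom, Nr5a2, Foxa2 and Prox1, whereas Rbpjl stayed negative but did not pass against Ctrc.

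Of the 4 measured partners of PTF1A, 2 were higher, 1 was lower and 1 did not pass. Among named genes 20.3% were higher and 34.3% lower. Rbpj, the broadly expressed DNA-binding partner that also serves Notch signalling, rose from 6.41 ± 0.12 (SD, n = 5) to 6.80 ± 0.20 (SD, n = 6), a difference of 0.39 (SE 0.098, limma adjusted p = 0.00663). A second, dimmer Rbpj probe set had a difference of -0.24 (limma adjusted p = 0.0986). Its change differed from that of the brighter one by -0.63 (SE 0.15, exact permutation test over samples, two-sided, p = 0.00433). The comparison with Rbpjl that follows used the brighter probe set alone. The change of Rbpj exceeded that of Rbpjl by 1.82 (SE 0.17, 95% interval 1.44 to 2.19, exact permutation p = 0.00433, adjusted p = 0.0159 over 11 such comparisons). Of the E proteins, Tcf12 rose by 0.61 (limma adjusted p = 7.94e-05), Tcf4 fell by 0.35 (limma adjusted p = 0.0111) and Tcf3 had a difference of -0.023 (limma adjusted p = 0.831). Set against the change of Ptf1a, that of Tcf4 differed by -0.91 (SE 0.24, exact permutation p = 0.00433, adjusted p = 0.0159) and that of Tcf3 by -0.58 (SE 0.19, exact permutation p = 0.0173, adjusted p = 0.0381). For Tcf12 the value was 0.058 (95% interval -0.34 to 0.46, exact permutation p = 0.74, adjusted p = 0.74). The E proteins were not compared with Rbpjl. With the scaling list held equal 0 of these 4 partners were higher and 3 were lower, beside 5.44% and 87.8% of named genes.

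Among 8 genes of the ID proteins, which sequester E proteins, and of Notch output, 1 was higher and 3 were lower. The shares of named genes were 20.3% and 34.3%. The median difference of the 8 was -0.066. Hes1, a Notch-driven repressor of acinar fate, rose by 1.15 (SE 0.12, limma adjusted p = 6.63e-06), and Id4 fell by 0.61 (limma adjusted p = 4.22e-05). The other 2 lower genes were also Notch targets, named here after their values were seen: Hey1 fell by 0.36 and Heyl by 0.33 (limma adjusted p = 0.00829 and 0.00307). Nrarp, a further Notch target, had a difference of -0.0043 (limma adjusted p = 0.977), so the Notch output genes did not move one way.

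Genes reported as targets of BHLHA15 in the secretory apparatus fell in 5 of 5 cases, beside 34.3% of named genes. The median difference of the 5 was -0.37. Copz2, a coat protein subunit of transport vesicles, fell by 0.90 (SE 0.078, limma adjusted p = 1.17e-06), and Rab26, a small GTPase of secretory granules, fell by 0.52 (limma adjusted p = 0.00127). The secretory pathway calcium pump gene Atp2c2, the gap junction gene Gjb1 and the granule GTPase gene Rab3d fell by 0.37, 0.35 and 0.35 (limma adjusted p = 0.00388, 0.00272 and 0.0118). All of these falls were smaller than that of Bhlha15 itself, a difference that was not tested. With either cyclic loess or the repeated quantile normalisation 4 of the 5 were called lower, beside 18.2% and 23.4% of named genes.

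Other factors of acinar nuclei fell in 4 of 6 measured cases and rose in 0, beside 34.3% and 20.3% of named genes. The median difference of the 6 was -0.28. Nr0b2, an orphan receptor that is a target and repressor of NR5A2, fell by 0.97 (SE 0.087, limma adjusted p = 1.64e-06). Its change and that of Nr5a2 differed by -0.14 (95% interval -0.42 to 0.13, exact permutation p = 0.277, adjusted p = 0.339). Hnf4a, a nuclear receptor of gut and liver epithelium, fell by 0.34 (limma adjusted p = 0.00376). The genes that follow were named after their values were seen. Xbp1, with a mean of 10.78 in both groups, had a difference of -0.0015 (limma adjusted p = 0.986). Bmi1 did not pass either (-0.19, limma adjusted p = 0.0864). Hnf4g, among the lower ones, was dim, with means of 3.91 in NaCl and 3.66 in caerulein, and no detection calls were at hand. The count of falls was 2 of 6 after cyclic loess, beside 18.2% of named genes.

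Of 9 GATA, FOXA, PROX, MECOM and NR5A relatives 6 were lower and 1 was higher, beside 34.3% and 20.3% of named genes. The higher one was Foxa3, a forkhead factor of gut and liver, whose mean went from 6.80 ± 0.17 (SD, n = 5) to 8.07 ± 0.22 (SD, n = 6), 2.42-fold (limma adjusted p = 1.54e-06). The changes of Foxa3 and Foxa2 within arrays differed by 1.69 (SE 0.15, exact permutation p = 0.00433, adjusted p = 0.0159), whereas those of Foxa1 and Foxa2 differed by 0.17 (95% interval -0.010 to 0.34, exact permutation p = 0.0649, adjusted p = 0.0893). Prdm16, the nearest relative of Mecom, fell by 0.68 (limma adjusted p = 1.16e-05). No detection calls were at hand for these relatives. Prox2, among the lower ones and named after its values were seen, was dim, with means of 4.90 in NaCl and 4.54 in caerulein. The number of lower relatives was 3 after cyclic loess and 8 with the scaling list held equal, beside 18.2% and 87.8% of named genes.

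The corepressor genes Ctbp1 and Ctbp2, whose products bind MECOM, rose by 0.53 and 1.64 (limma adjusted p = 1.32e-05 and 3.87e-09). The GATA cofactor genes Zfpm1 and Zfpm2 fell by 0.51 and 0.24 (limma adjusted p = 0.000532 and 0.0498). With either cyclic loess or the repeated quantile normalisation 1 of these 4 genes was lower, beside 18.2% and 23.4% of named genes. With the scaling list held equal Ctbp1 turned to lower (-0.28, limma adjusted p = 0.00527), and Ctbp2 was still higher (0.83, limma adjusted p = 4.8e-06).

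**Figure D5:**
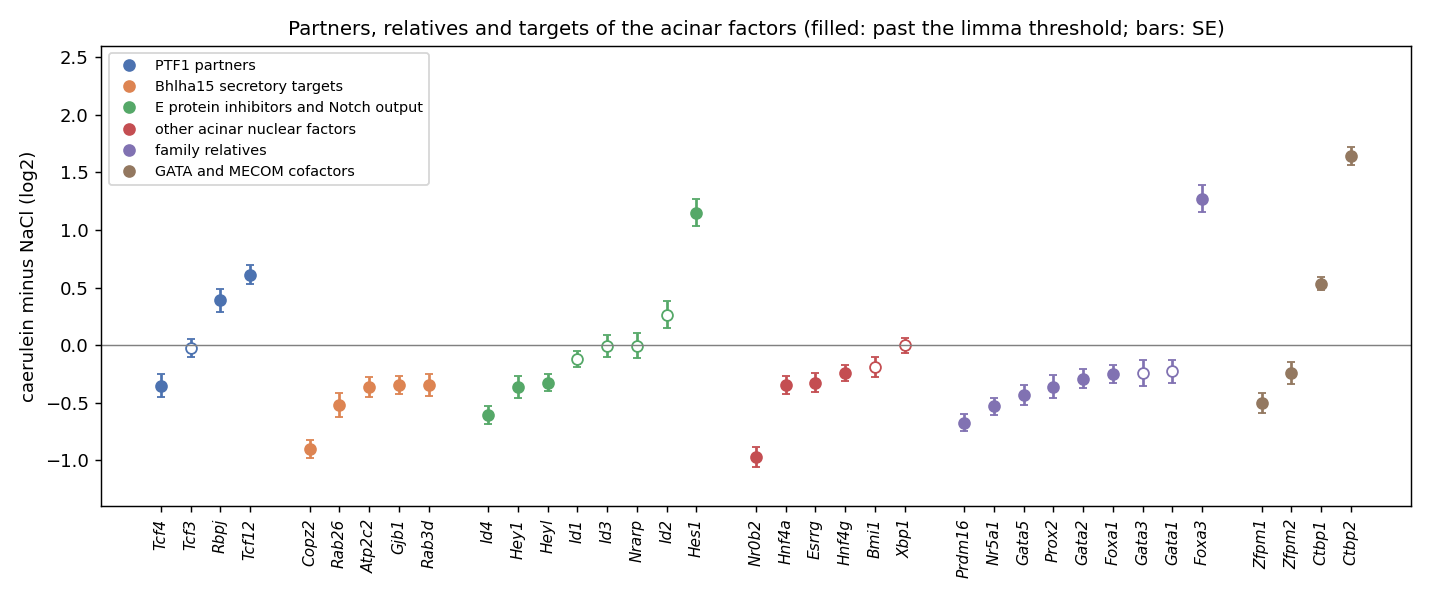
Caerulein minus NaCl difference (log2, vertical axis, SE as bars) of the genes that work with or are related to the 9 factors, coloured by list, with filled points past the limma threshold and open points not. Ctbp2, Foxa3 and Hes1 are the highest points, at 1.64, 1.27 and 1.15, and Nr0b2 and Copz2 the lowest, at -0.97 and -0.90.

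For the members that changed by at least 2-fold, the genes with the most similar profile over the 11 arrays were found by the root mean square distance of log2 values relative to the NaCl mean. For Bhlha15 these were Mknk1, Ivd and Sgpp1, at distances of 0.15, 0.16 and 0.16, with differences of -2.03, -2.03 and -1.93. For Rbpjl they were Hibadh, Chpt1 and Pik3r1, at distances of 0.13, 0.14 and 0.15, with differences of -1.45, -1.43 and -1.30.

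Some of the 9 factors are also made outside acinar cells, so markers of other cells were read on the same arrays. Counts in this and the next paragraph stand beside 34.3% of named genes lower and 20.3% higher as deposited. Islet markers, relevant to Foxa2 and Prox1, were lower in 4 of 9 cases and higher in 0, led by Slc2a2 and Ppy (-0.55 and -0.30; limma adjusted p = 0.00015 and 0.0405). The count lower was 1 after cyclic loess, beside 18.2% of named genes. The hormone genes Gcg, Iapp and Ins2, named after their values were seen, had differences of 0.27, 0.25 and 0.016 and did not pass. Sst and Chga, at -0.42 and -0.099, did not pass either. The mean level of the islet list overlapped between groups (7.21 to 8.15 in NaCl, 7.20 to 7.95 in caerulein). Lymphatic endothelium, where Prox1 is made, had 1 of 5 markers higher, Pdpn at 1.27, and 2 lower, with Flt4 at -0.27, a median difference of -0.18 and a mean level of 5.39 to 5.50 in NaCl and 5.48 to 5.63 in caerulein. Without Pdpn, left out after the data had been seen, the other 4 lymphatic markers all had negative differences. Their mean level was 5.13 to 5.27 in NaCl and 4.94 to 5.11 in caerulein. Negative differences were common, with 13370 of 19938 named genes below the -0.0043 of Nrarp. After either cyclic loess or the repeated quantile normalisation 0 of the 5 lymphatic markers were lower, beside 18.2% and 23.4% of named genes. Blood endothelium, where Mecom is made, had 2 of 7 markers higher, Pecam1 and Cdh5 at 0.39 and 0.38, and 0 lower, with mean levels of 5.94 to 6.05 and 6.05 to 6.24. With an equal scaling list mean all 7 were lower, as were 87.8% of named genes. Stellate and fibroblast markers, relevant to Gata6 and Gata4, were higher in 2 of 8 cases and lower in 1, with Col3a1 at 0.83 and Lum at -0.77 and mean levels of 6.70 to 7.14 and 6.67 to 7.33. Of 5 mesothelium markers, Wt1, Msln, Upk3b, Lrrn4 and Krt5, 0 passed the limma threshold, with differences from -0.26 to -0.0059 and mean levels of 5.69 to 5.93 and 5.54 to 5.80.

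Leukocyte markers were higher in 4 of 9 cases and lower in 1, with Cd14 at 2.31 and Cd68 at 1.59. Their mean level was 5.51 to 5.66 in NaCl and 5.99 to 6.76 in caerulein. Itgam and Ptprc also rose, by 1.51 and 0.52. The lower one was Cd3e (-0.23, limma adjusted p = 0.0216), and Csf1r, Itgb2, S100a8 and S100a9 did not pass. All but Cd14 and Cd68 were named after their values were seen. Duct markers were higher in 4 of 8 cases and lower in 3, with Krt19 at 4.39 and Krt7 at 1.94, and their mean level was 7.35 to 7.49 in NaCl and 7.90 to 8.14 in caerulein. The lower ones, named after their values were seen, were Muc1, Tff2 and Onecut1 (-1.14, -0.82 and -0.66; limma adjusted p = 1.16e-07, 8.18e-07 and 3.88e-05), and Sox9 did not pass (0.41, limma adjusted p = 0.0598). Without Krt19, left out after the data had been seen, the other 7 duct markers had mean levels of 7.38 to 7.51 in NaCl. In caerulein these were 7.36 to 7.63. No marker can be read as being at 0 on these arrays. The part of these cells in the changes of the 9 factors was not tested.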

How the data were processed

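The authors deposited log2 expression values for 35556 probe sets on 11 Affymetrix arrays, made with RMA, oligo and limma per the submitters' processing notes; the sources used here give no versions and no genome build. Degraded RNA was excluded before hybridisation, per the labels' protocols. RMA as usually run corrects background, quantile-normalises probes and summarises them per probe set, so that changes near either end of the scale can be understated. Array medians were 5.35 to 5.40 in NaCl and 5.20 to 5.25 in caerulein. Pairs of arrays correlated at 0.981 to 0.991 inside a group and at 0.938 to 0.955 across groups, and no arrays were identical. The number of arrays limits the precision.

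Single-symbol probe sets (21789) gave 19938 genes, and a gene with several was read from its brightest probe set on average, and 1621 probe sets with several symbols were not used for naming. Groups and replicate numbers were taken from sample titles. limma 3.58.1 under R 4.3.3 compared caerulein with NaCl without covariates, two-sided, and the fit was tested on simulated data. Pairs of members were tested by subtracting a member within each array before the limma fit. There the noise of the subtracted member is shared by every probe set, which makes limma's p-values too small, so exact permutation p-values are printed for pairs, with SEs and intervals from the 2-group spread. The pairing of relatives with members was chosen after their values were seen. Named genes were the 9 members, from each list the 2 genes past the threshold with the largest difference or all genes of lists of 5 or fewer, and the 3 genes nearest in profile to members changed at least 2-fold; predicted and RNA genes were left out there. The alternatives, given in the closing section, were other scalings, variance priors, array weights, a filter on dim probe sets, averaging of probe sets, a replicate block and leaving out each array. Members and lists were chosen with earlier results of these data known.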

Additional observations from a re-analysis of the deposited data

Results flagged for a closer look

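Among the 18 sets of arrays checked (9 genes in 2 groups), 1 held a value far from the others of its group. Foxa2 in caerulein replicate 5 was 6.37, and the nearest other caerulein array was 6.57, a gap of 0.685 of the group's range. Chance flags about 1 in 20 such sets.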

How the results depend on the processing

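Bhlha15, Rbpjl, Nr5a2 and Foxa2 kept their direction and call in all 20 alternatives, and Mecom in the 19 that measured it. The Gata4 difference was negative with the scaling list held equal (-0.78), with equal 75th percentiles (-0.026), after cyclic loess (-0.13), after a repeated quantile normalisation (-0.27) and without NaCl replicate 5; it ranged from -0.015 to 0.099 when 1 array was left out. With the scaling list held equal Gata6 turned to -0.66 and Ptf1a to -0.26, and Gata6 was -0.14 after the repeated quantile normalisation. Under each of these 2 scalings 0 members were higher. The median difference of the members moved to -1.24 and -0.55 with them; leaving out 1 array gave -0.51 to -0.38. Relative to the enzyme mean, 1 member was higher after the repeated quantile normalisation, and 2 to 3 when 1 array was left out. For shifts of whole arrays the cause lies in their construction; otherwise the cause was not tested. Without 1 array, 27 to 31 member pairs passed limma, 6 members stayed lower and 1 higher. Counts of lists moved by over 1.5 times in 30 of 112 list counts under other scalings.

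Deviations of arrays with the same replicate number correlated at -0.052 to 0.060 over probe sets, so the numbers are not taken to pair samples. With the replicate block 9227 named genes were called, against 10890 without it, and Prox1 lost its call (-0.38, limma adjusted p = 0.0835); the other members kept theirs. Without detection calls, what dim probe sets such as those of Prox1 and Mecom measure above background is unknown.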
